A study of Mus musculus with 13 samples.

Results

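YAP and TAZ are transcriptional coactivators that carry no DNA-binding domain of their own, and they reach their target genes through the TEAD transcription factors. The Hippo kinases LATS1 and LATS2 phosphorylate both proteins, which keeps them in the cytoplasm, whereas a spread, contractile cell shape favours their entry into the nucleus. In fibroblasts this pathway is known for its link to adhesion, actin tension and matrix gene expression. A set of 10 genes of the pathway was followed here: the coactivators Yap1 and Wwtr1 (which encodes TAZ), the DNA-binding partner Tead1, the kinase gene Lats2, the regulators Ajuba and Amotl2, and the widely used target genes Ccn1, Ccn2, Ankrd1 and Axl. They were chosen by name as regulators and targets of YAP and TEAD, with earlier results of these data known. All 10 of the 10 were found among the 57010 genes of the deposited tables and passed the filter on low counts, which left 15034 genes.

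RNA-Seq was performed on mouse embryonic fibroblasts (MEFs) from wild-type (WT) mice, a primary mesenchymal culture grown from minced embryos at 3% oxygen. The 4 groups were control MEFs given vehicle, untreated senescent MEFs, which had received 2 μM etoposide (a topoisomerase inhibitor that breaks DNA) for 24 h and then 5 days of normal medium, and senescent MEFs that then received Fucoidan-FV, a fucose-rich sulfated seaweed polysaccharide, at 100 or 300 μg/mL for 12 h. Each group held MEFs labelled mouse 4, 5 and 6 (n = 3), and control mouse 5 had libraries 5(1) and 5(2), which were summed. No group of control MEFs received Fucoidan-FV, so its effect on non-senescent cells cannot be read from these samples, and in bulk RNA fewer cells that express a gene and less RNA per cell cannot be told apart.

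Levels are given as CPM (read counts scaled to a common library size) after TMM scaling, and as TPM (transcript abundance, scaled for length) where genes are compared with each other. A gene is said to have risen, fallen or changed only where its adjusted p from edgeR's quasi-likelihood test was under 0.05. The libraries held 22782505 to 31278741 counts, and the 10 genes held 1316 to 152634 counts per library, so counting error was small beside the spread between libraries. All 13 fibroblast markers checked passed the filter, with a summed level of 14511 to 19468 CPM per sample, although Lum averaged 0.0610 CPM and Dcn reached at most 1.57 CPM in control MEFs. Of the skeletal muscle markers, Myf5 and Myf6 had no count, and Myod1 and Myog stayed at or under 0.0425 CPM, whereas Acta1 held 13.6 to 121 CPM.

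One property of the libraries bears on these genes. In genes for which the annotation lists a single transcript (778 genes at a mean over 3 CPM), the median log2 deviation of a library from the mean of all libraries was lowest in control mouse 6 (−1.54) and highest, at 1.23, in FV100 mouse 5. The libraries of control mouse 5 stood at −1.22 and 0.86, senescent mouse 5 at −1.03 and FV300 mouse 4 at −1.18. Ccn1 is the only one of the 10 genes that lists 1 transcript, and it moved with this class. Because of this, each comparison was also fitted with an offset per gene and library for the share of sequence found in a single transcript, gene length and GC content (called the fit with offsets).

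Libraries 5(1) and 5(2) of control mouse 5 differed in the 10 genes as well. Library 5(2) held 3.87 times the CPM of library 5(1) for Ccn1, while its level was 0.573 of that in 5(1) for Ankrd1, 0.625 for Tead1, 0.639 for Axl, 0.673 for Amotl2, 0.693 for Ccn2 and 0.739 for Yap1. The same ratio was 0.941 for Ajuba, 0.958 for Wwtr1 and 1.12 for Lats2. Over all genes these libraries of 1 mouse differed by a chi-square of 149.6 per gene, within the 53.9 to 159.5 of the other pairs of control libraries.

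The TEAD factors bind the hexamer GGAATG, also written CATTCC on the opposite strand. The start regions of 6 of the 10 genes are shown because they hold this motif and include genes that changed (Ankrd1, Axl and Ajuba) and genes that did not (Amotl2, Ccn1 and Yap1). Each is 300 bases from RefSeq (table of build GRCm38.p6), from 250 bases before to 50 bases after the annotated start, read 5′ to 3′ along the gene, with the motif on either strand in capitals. The positions are those of the single exact match in GRCm39.
Ankrd1 (chr19:36097195-36097494, minus strand): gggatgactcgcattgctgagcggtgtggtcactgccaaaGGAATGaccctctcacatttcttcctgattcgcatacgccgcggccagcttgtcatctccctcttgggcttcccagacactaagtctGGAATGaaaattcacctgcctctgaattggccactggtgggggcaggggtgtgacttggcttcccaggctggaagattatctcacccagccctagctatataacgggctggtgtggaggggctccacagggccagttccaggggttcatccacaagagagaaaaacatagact
Axl (chr7:25488109-25488408, minus strand): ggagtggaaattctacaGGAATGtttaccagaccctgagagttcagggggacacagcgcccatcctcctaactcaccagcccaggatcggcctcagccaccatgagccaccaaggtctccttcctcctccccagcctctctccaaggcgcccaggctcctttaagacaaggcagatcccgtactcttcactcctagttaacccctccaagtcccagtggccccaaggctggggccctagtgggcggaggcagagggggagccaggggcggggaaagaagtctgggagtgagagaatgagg
Ajuba (chr14:54815069-54815368, minus strand): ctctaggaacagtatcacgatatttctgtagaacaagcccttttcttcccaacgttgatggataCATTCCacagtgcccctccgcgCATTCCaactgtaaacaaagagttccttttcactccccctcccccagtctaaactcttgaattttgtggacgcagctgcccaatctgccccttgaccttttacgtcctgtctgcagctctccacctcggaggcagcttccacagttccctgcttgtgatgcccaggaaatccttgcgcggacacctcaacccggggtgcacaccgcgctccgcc
Amotl2 (chr9:102594753-102595052, plus strand): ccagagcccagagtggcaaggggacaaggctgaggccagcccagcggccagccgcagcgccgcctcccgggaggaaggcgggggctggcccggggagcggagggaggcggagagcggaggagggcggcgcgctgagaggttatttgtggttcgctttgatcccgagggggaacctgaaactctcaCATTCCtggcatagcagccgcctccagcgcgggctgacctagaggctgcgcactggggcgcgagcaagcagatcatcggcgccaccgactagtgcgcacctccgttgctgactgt
Ccn1 (chr3:145355691-145355990, minus strand): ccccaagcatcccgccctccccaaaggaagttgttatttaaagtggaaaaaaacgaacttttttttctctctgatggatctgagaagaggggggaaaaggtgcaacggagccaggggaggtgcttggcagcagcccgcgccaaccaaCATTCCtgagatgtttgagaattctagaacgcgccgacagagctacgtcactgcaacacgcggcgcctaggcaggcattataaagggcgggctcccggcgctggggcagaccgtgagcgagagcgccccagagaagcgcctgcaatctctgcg
Yap1 (chr9:8004548-8004847, minus strand): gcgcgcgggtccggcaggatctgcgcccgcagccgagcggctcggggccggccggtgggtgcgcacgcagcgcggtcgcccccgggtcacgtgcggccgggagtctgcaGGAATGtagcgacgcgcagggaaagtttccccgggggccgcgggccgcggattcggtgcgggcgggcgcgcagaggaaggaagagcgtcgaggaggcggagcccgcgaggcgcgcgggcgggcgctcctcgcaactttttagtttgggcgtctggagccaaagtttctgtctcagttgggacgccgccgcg

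Of the 10 genes, 8 had an entry in the promoter table (Ccn2 and Tead1 had none), and all 8 held GGAATG on at least 1 strand, against 14.7% of the 32851 promoters of the table, which have the same length. The 8 are counted per gene over 10 entries, whereas the share is per entry. The genes were also chosen as regulators and targets of YAP and TEAD. Ankrd1 held it 2 times, 210 and 123 bases before the start, and Ajuba 2 times, 186 and 164 bases before it. The single match of Axl lay 233 bases before the start, that of Yap1 141, that of Ccn1 103 and that of Amotl2 65 bases before it. Wwtr1 held 1 match in each of its 2 entries, 136 or 170 bases before the start, and Lats2 in 1 of its 2 entries, just after the start. An AP-1 site (TGANTCA, in 7.81% of all promoters) and the CArG box, the motif of serum response factor (in 1.63%), had no match in the windows of these 8 genes. The motif was thus present in genes that fell and in genes that did not pass the test, and a match in a window is a description, not evidence of binding.

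**Figure D1:**
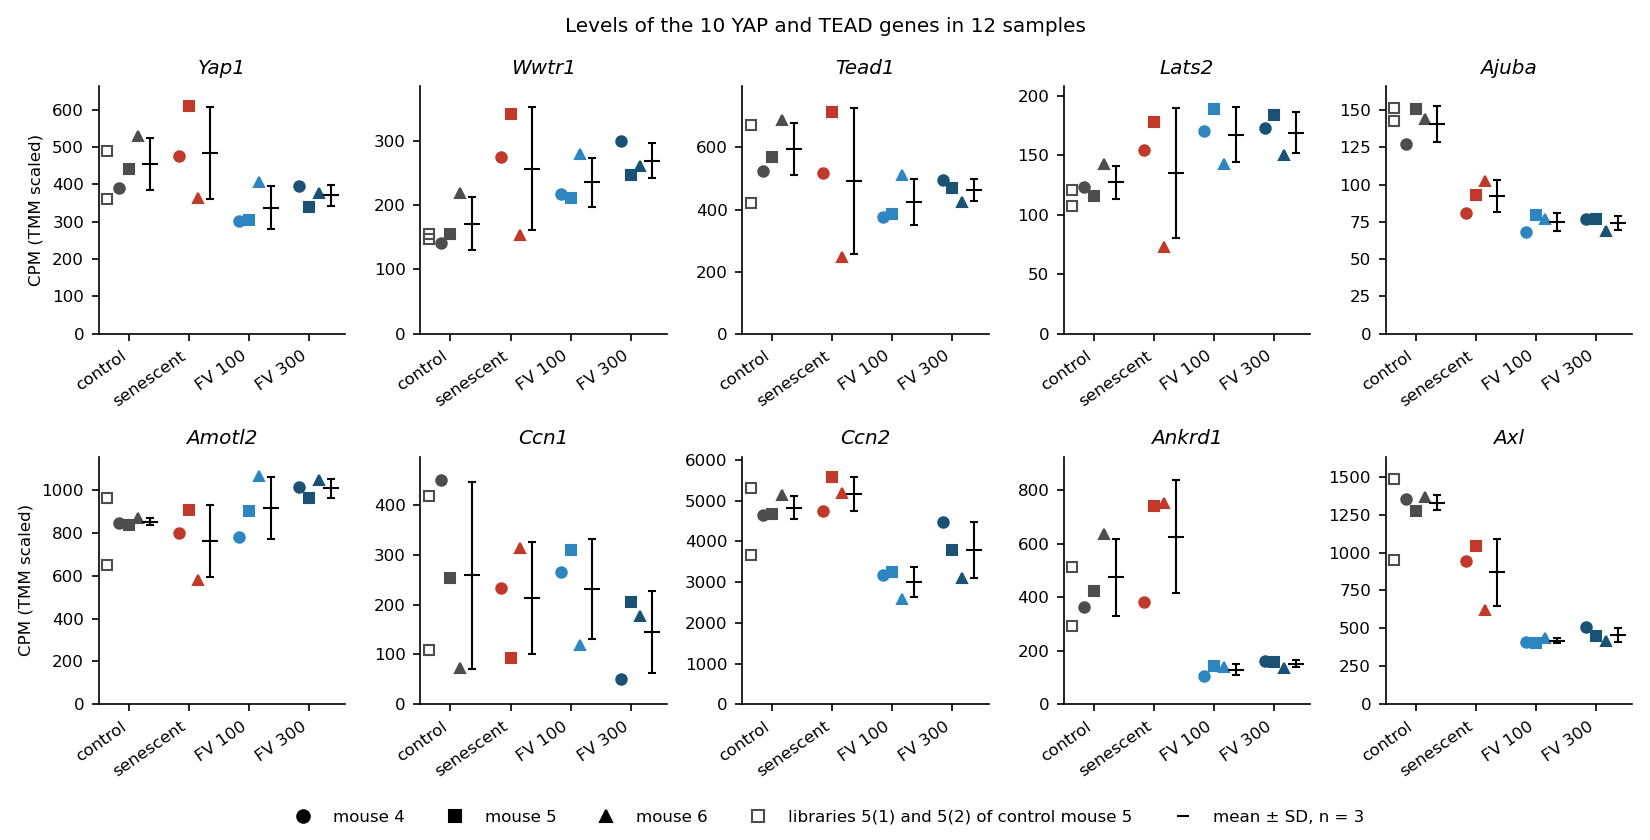
CPM (y axis, TMM scaled) of each of the 10 genes in control MEFs, senescent MEFs and senescent MEFs given 100 or 300 μg/mL Fucoidan-FV (FV 100, FV 300), with 1 filled point per mouse, open squares for the libraries of control mouse 5 and the mean ± SD (n = 3) beside each group. All 6 treated samples lie below all senescent and control samples for Ankrd1 and Axl, senescent mouse 6 lies apart from senescent mice 4 and 5 for Tead1 and Lats2, and the points of Ccn1 are spread in every group.

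The comparison of senescent with control MEFs asks what etoposide-induced senescence did to the pathway. Among the 10 genes 1 changed: Ajuba fell 1.53-fold, while 11.7% of all genes tested changed and 5.63% fell in this comparison. Axl was 1.53-fold lower as well but missed the threshold (adjusted p = 0.0535). The coactivators, Tead1, Lats2, Amotl2, Ccn1, Ccn2 and Ankrd1 did not pass the test, and the median log2 fold change of the 10 was −0.04 against 0.07 over all genes. The values of senescent and control samples did not overlap for 2 of the 10 genes, Ajuba and Axl, against 27.1% of all genes.

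With Fucoidan-FV at 100 μg/mL, 3 of the 10 genes fell relative to untreated senescent MEFs (Ankrd1 4.82-fold, Axl 2.08-fold and Ccn2 1.72-fold), where 4.02% of all genes changed and 2.89% fell. At 300 μg/mL, 2 of them fell (Ankrd1 4.12-fold and Axl 1.90-fold), where 1.9% of all genes changed and 1.12% fell. The other genes, among them the targets Ccn1, Lats2 and Amotl2, did not pass the test at either dose in this fit. Both doses were compared with the same senescent samples, so these counts are not independent of each other. Values did not overlap in 4 of the 10 genes with the lower dose (26.2% of all genes) and in 5 with the higher dose (19.6%). Between the doses 0 of the 10 genes changed in edgeR's test (0 also at an unadjusted p under 0.05, and 0 with DESeq2), against 0.00665% of all genes, and 0 had values that did not overlap, against 7.54%.

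Markers of cell types moved along with these falls. Of the 13 fibroblast markers, Col3a1, Lum and Dcn, genes of collagen and of small matrix proteoglycans, rose at 100 μg/mL, from 873 to 2271 CPM, from 0.666 to 6.60 CPM and from 16.2 to 81.7 CPM on average (adjusted p = 0.0164, 0.0399 and 0.0477), and Vim, the vimentin gene, fell from 7729 to 4228 CPM (adjusted p = 0.0245). At 300 μg/mL Col3a1 rose as well (1963 CPM, adjusted p = 0.0489) and the other 12 did not pass. Dcn and Lum had already risen in senescent against control MEFs (adjusted p = 0.00215 and 0.0375). In that comparison Col1a2 and Fbn1 fell (adjusted p = 0.0338 and 0.0368). The epithelial keratin gene Krt19 fell from 10.2 CPM in senescent MEFs to 1.63 and 1.62 CPM at the doses (adjusted p = 0.00757 and 0.0101). The endothelial receptor gene Tek rose from 0.481 to 5.87 CPM at 100 μg/mL (4.77 to 7.96 CPM per sample, adjusted p = 0.0446). Of the 5 endothelial markers tested at this dose, 3 were higher and 2 lower than in senescent MEFs. One of the lower ones was Esam (3.90 to 0.803 CPM on average), which did not pass the test (adjusted p = 0.138). The 8 epithelial markers (2 passed the filter) summed to 7.03 to 17.7 CPM in senescent samples and 1.83 to 3.71 and 1.86 to 3.06 CPM at the doses, and the 8 endothelial markers (5 passed, Cldn5 at 0) to 4.61 to 7.03, 6.73 to 12.5 and 5.47 to 9.21 CPM. The 10 macrophage markers (6 passed) summed to at most 13.6 CPM in any of these samples, and none of them changed. Their part in the values of the 10 genes was not tested.

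**Figure D2:**
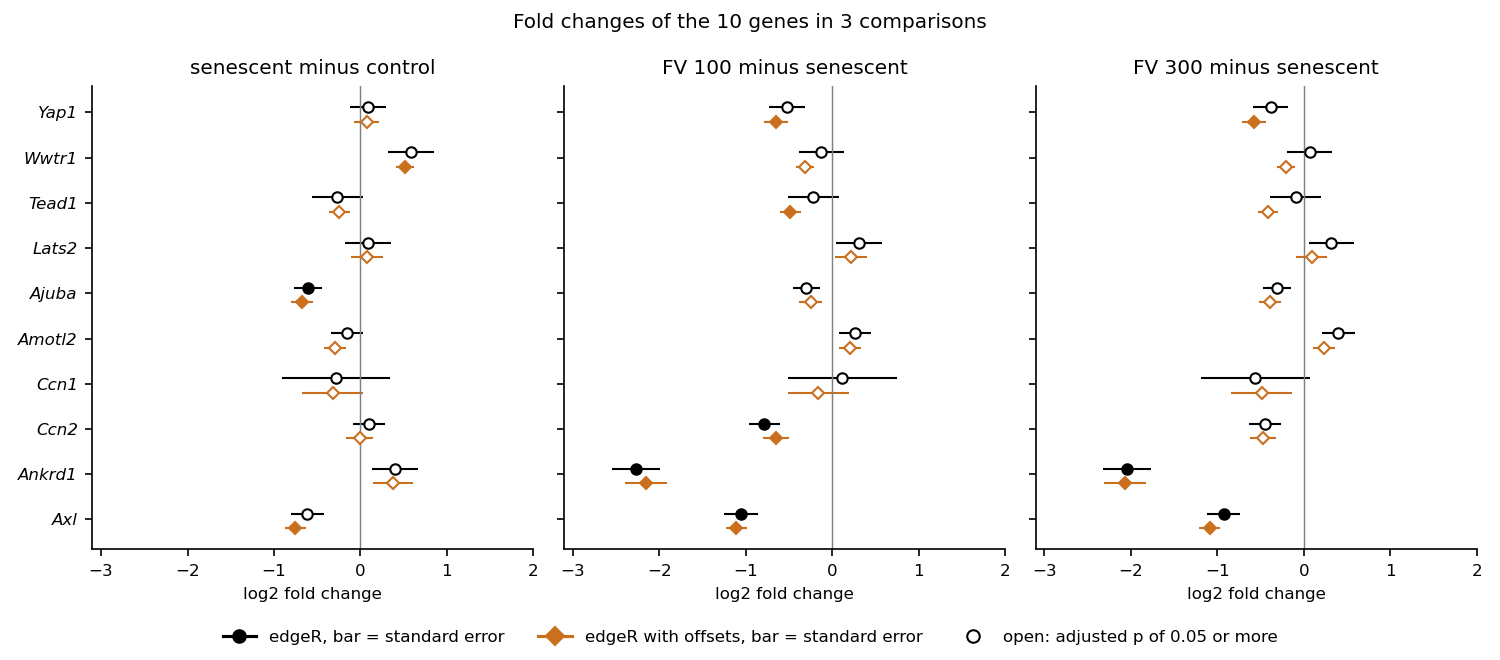
Log2 fold change (x axis) of the 10 genes (y axis) in senescent against control MEFs and in each dose of Fucoidan-FV against senescent MEFs, from edgeR (circles) and from the fit with offsets (diamonds), with bars of 1 standard error and filled symbols for an adjusted p under 0.05. Ankrd1 (−2.27 and −2.04) and Axl (−1.05 and −0.93) lie farthest to the left at both doses in both fits.

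The coactivator Yap1 stood at 391 CPM in control mouse 4, 442 in mouse 5 and 529 in mouse 6. In senescent MEFs it was 477, 609.7 and 365 CPM in mice 4, 5 and 6, so that the groups overlapped. With Fucoidan-FV it was 303, 306 and 406 CPM at 100 μg/mL and 395, 339.6 and 378 CPM at 300 μg/mL, in the same order of mice. Against senescent MEFs the log2 difference was −0.52 ± 0.21 (SE) at 100 μg/mL (adjusted p = 0.185, 95% interval −0.96 to −0.07) and −0.38 ± 0.21 at 300 μg/mL (adjusted p = 0.418, −0.83 to 0.06). With offsets it passed the test at both doses (−0.65, adjusted p = 0.0152, and −0.57, adjusted p = 0.0321), while over the 13 libraries the level of Yap1 had a correlation of −0.72 with the median of single-transcript genes, a description over libraries that share their groups.

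Wwtr1, which encodes TAZ, was lowest on average in control MEFs, at 141, 155 and 219 CPM in mice 4, 5 and 6. Senescent MEFs held 275, 342 and 153 CPM, with mouse 6 inside the control range. The treated samples held 217, 211 and 279.9 CPM at 100 μg/mL and 299.9, 246 and 262 CPM at 300 μg/mL, close to the senescent mean of 257 ± 95.7 (SD, n = 3). The log2 difference of senescent from control MEFs was 0.58 ± 0.26 (SE, adjusted p = 0.187), and with offsets 0.51 ± 0.10 (adjusted p = 0.00329), past the threshold. Neither dose differed from senescent MEFs past the threshold (−0.12 and 0.07), with 95% intervals of −0.69 to 0.45 and −0.50 to 0.64.

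The ratio of the coactivators within a sample needs no scaling between libraries, since both levels are TPM of the same library. Yap1 exceeded Wwtr1 3.36-fold in control mice 4 and 5 and 2.98-fold in mouse 6. In senescent MEFs the ratio was 2.12, 2.21 and 2.73, with 1.66, 1.77 and 1.83 at 100 μg/mL and 1.61, 1.65 and 1.75 at 300 μg/mL, each in the order of mice 4, 5 and 6. The senescent ratios were thus below all control ratios, and the treated ratios below all senescent ones, while the doses overlapped. The mean ratio was 3.23 ± 0.224 (SD, n = 3) in control and 2.35 ± 0.332 in senescent MEFs, and was 1.75 ± 0.0861 and 1.67 ± 0.0707 at the doses. A 2-sided exact permutation test gave p = 0.1 when senescent MEFs were set against control MEFs or against either dose, the smallest p that 3 samples against 3 allow, and p = 0.2 between the doses. Control mouse 6 and FV300 mouse 4, which are low in single-transcript genes, had the lowest ratio of their groups, and senescent mouse 5, which is low too, did not.

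**Figure D3:**
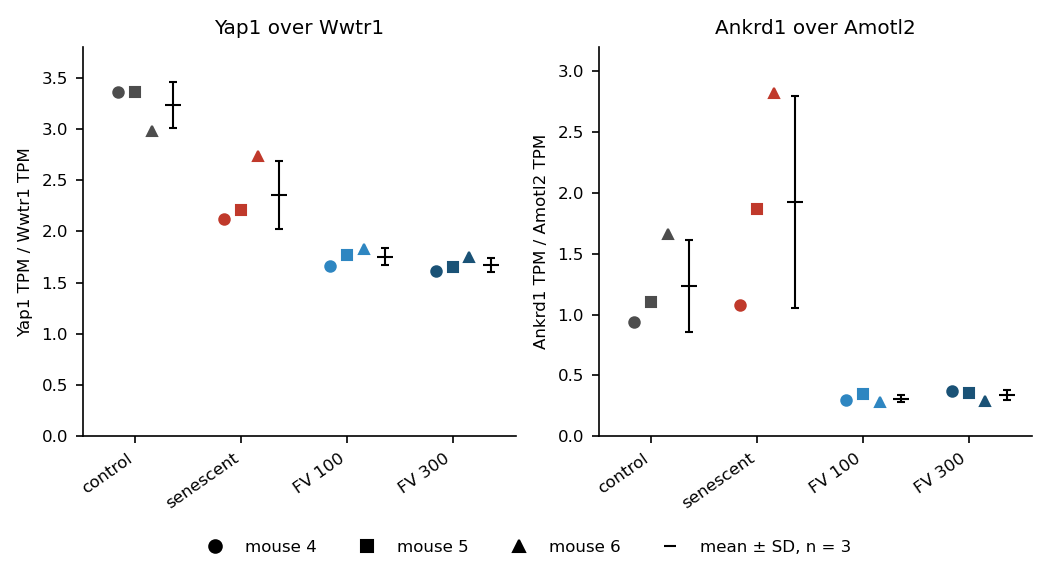
Ratio of Yap1 to Wwtr1 TPM (left) and of Ankrd1 to Amotl2 TPM (right) in each of the 12 samples, 1 point per mouse, with the mean ± SD (n = 3) beside each group. The left ratio is highest in control MEFs (2.98 to 3.36) and lowest in treated MEFs (1.61 to 1.83), and the right ratio is 0.284 to 0.370 in the 6 treated samples and 0.942 to 2.82 in the other 6.

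Tead1, the DNA-binding partner, was measured at 525, 569 and 688 CPM in control mice 4, 5 and 6. Senescent MEFs held 518 and 715 CPM in mice 4 and 5 but 246 CPM in mouse 6, less than any other sample. The treated samples lay between 375 and 510.2 CPM. No comparison of Tead1 passed the test, and the 95% interval of the log2 difference was −0.90 to 0.36 for senescence, −0.85 to 0.42 at 100 μg/mL and −0.72 to 0.54 at 300 μg/mL. With offsets it was lower at 100 μg/mL than in senescent MEFs (−0.48 ± 0.12, adjusted p = 0.0261). Of the other TEAD genes, Tead2 fell in senescence from 142 ± 7.72 to 63.9 ± 12.3 CPM (log2 fold change −1.15, adjusted p = 0.00219) and stayed at 48.5 to 67.4 CPM in treated MEFs, whereas Tead3 and Tead4 did not pass the test in these comparisons.

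Lats2 encodes a kinase that phosphorylates YAP and TAZ and is itself a target of YAP. It stood at 123, 116 and 143 CPM in control mice 4, 5 and 6, at 155, 178 and 73.2 CPM in senescent MEFs, and at 143 to 189 CPM in the treated samples. Senescent mouse 6 was again the lowest of all 12 samples. No comparison passed the test, with log2 differences of 0.09 ± 0.26 (SE) for senescence, 0.31 ± 0.26 at 100 μg/mL and 0.32 ± 0.26 at 300 μg/mL.

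Ajuba is a LIM protein of cell junctions that binds LATS kinases and restrains them. It was at 127, 151 and 144 CPM in control mice 4, 5 and 6 and at 81.2, 93.0 and 103 CPM in senescent MEFs. The groups did not overlap, and the log2 fold change was −0.61 ± 0.16 (SE, adjusted p = 0.0263), lower in 3 of 3 mice. Treated MEFs held 68.4 to 79.8 CPM at 100 μg/mL and 69.0 to 77.2 CPM at 300 μg/mL, below every senescent sample, although on TPM both doses overlapped senescent MEFs. Neither dose differed from senescent MEFs past the threshold (−0.30 and −0.31, adjusted p = 0.335 and 0.390). Against control MEFs Ajuba fell at both doses, by 0.91 and 0.92 on the log2 scale (adjusted p = 0.00123 and 0.0012). The call in senescence was lost without control mouse 5, senescent mouse 4 or senescent mouse 5 (adjusted p = 0.0744, 0.0750 and 0.0504), in a fit of control and senescent samples alone (0.114), with no filter on low counts (0.0746) and without the 4 libraries lowest in single-transcript genes (0.141).

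Amotl2 encodes an angiomotin, a scaffold that holds YAP at junctions, and is also induced by YAP. It was the steadiest of the 10 genes in control MEFs, at 847, 839 and 870.4 CPM in mice 4, 5 and 6, although libraries 5(1) and 5(2) of mouse 5 held 963 and 649 CPM. Senescent samples spread more widely, at 799.7, 908 and 580.2 CPM. Treated samples held 780.2, 904 and 1067 CPM at 100 μg/mL and 1014, 961 and 1048 CPM at 300 μg/mL, and all of the latter lay above every senescent and control sample. The log2 difference from senescent MEFs was 0.27 ± 0.19 (adjusted p = 0.472) and 0.40 ± 0.19 (adjusted p = 0.325), with a sign opposite to that of Ankrd1 and Axl, and did not pass the test.

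Ankrd1 encodes a nuclear ankyrin repeat protein, is among the targets most used as a readout of YAP, and is known from strained muscle. It was at 362, 422 and 638 CPM in control mice 4, 5 and 6 and at 381, 742 and 753 CPM in senescent mice 4, 5 and 6. With Fucoidan-FV it dropped to 107, 144 and 138 CPM at 100 μg/mL and 163, 157 and 136 CPM at 300 μg/mL. The highest treated sample thus held less than the lowest control or senescent sample, in 3 of 3 mice at each dose. Against senescent MEFs the log2 fold change was −2.27 ± 0.28 (SE, adjusted p = 0.00155) and −2.04 ± 0.28 (adjusted p = 0.00379), and against control MEFs −1.87 and −1.64 (adjusted p = 0.000331 and 0.000842). Senescent and control MEFs did not differ past the threshold (0.40 ± 0.27, adjusted p = 0.396), and neither did the doses (0.23 ± 0.27, adjusted p = 0.970).

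Each of the 16 alternative fits of each dose against senescent MEFs kept the fall of Ankrd1 past the threshold, with a log2 fold change of −2.35 to −1.96 at 100 μg/mL and −2.22 to −1.83 at 300 μg/mL. The ratio of Ankrd1 to Amotl2 TPM, both targets of YAP, was 1.08, 1.87 and 2.82 in senescent mice 4, 5 and 6 and 0.284 to 0.370 in all treated samples (exact permutation p = 0.1 at each dose, the smallest that is possible). Amotl2 itself had the opposite sign to Ankrd1. Of the 4 ratios computed, that of Ccn2 to Ccn1 TPM overlapped between groups (exact permutation p = 0.3 at 100 μg/mL and 0.8 at 300 μg/mL), and that of Axl to Gas6 TPM gave p = 0.1 and 0.2 in the same exact test. Acta1, the skeletal actin gene and the one skeletal muscle marker over 1 CPM, did not pass the test (adjusted p = 0.171 and 0.113) but was lower as well, at 74.1 to 92.7 CPM in senescent, 13.6 to 51.3 CPM at 100 μg/mL and 18.0 to 42.7 CPM at 300 μg/mL. The summed level of the 10 skeletal muscle markers was 74.7 to 93.3 CPM in senescent samples and 14.0 to 51.9 and 18.2 to 43.4 CPM at the doses, with 2 of the 10 markers passing the filter. For cardiac muscle, where Ankrd1 is also abundant, 3 of 10 markers passed the filter, and the sum of all 10 was 3.07 to 11.3 CPM in senescent samples and 2.69 to 3.39 and 2.02 to 4.89 CPM at the doses. The 3 tested cardiac markers were all lower at both doses than in senescent MEFs, and none passed the test. The skeletal muscle factors Myod1, Myog, Myf5 and Myf6 were at or near 0 in every sample. Whether muscle-lineage cells had a part in the fall of Ankrd1 was not tested. In its family, Ankrd23 held 0.991 to 6.82 CPM and did not pass the test, and Ankrd2 did not pass the filter.

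Axl encodes a receptor tyrosine kinase of the TAM family, and YAP and TEAD are known to raise its transcription. It stood at 1351, 1271 and 1366 CPM in control mice 4, 5 and 6 and at 945, 1044 and 619 CPM in senescent MEFs. The samples given 100 μg/mL held 410.4, 407 and 439.7 CPM and those given 300 μg/mL 508, 447 and 418 CPM. The groups thus stepped down without overlap from control to senescent to treated MEFs, while the doses overlapped. The log2 fold change was −0.61 ± 0.19 (SE, adjusted p = 0.0535) in senescence, −1.05 ± 0.19 (adjusted p = 0.01) at 100 μg/mL and −0.93 ± 0.19 (adjusted p = 0.0266) at 300 μg/mL against senescent MEFs. Against control MEFs it was −1.67 and −1.54 (adjusted p = 6.15e-05 and 0.000115), past the threshold in all 19 alternative fits of each comparison. The step in senescence was as large as that between libraries 5(1) and 5(2) of control mouse 5 (1487 and 949.7 CPM), and it passed with offsets (−0.75, adjusted p = 0.000752) but not with library 5(2) alone (−0.49, adjusted p = 0.185). At the doses the calls were lost without either of senescent mice 4 and 5 (adjusted p = 0.0513 to 0.0779), in 2 of the 3 fits without a sample given 100 μg/mL (0.0577 and 0.0549) and in all 3 without a sample given 300 μg/mL (0.0545 to 0.17), in fits of the 2 groups alone (0.0945 and 0.116) and without the 4 libraries lowest in single-transcript genes (0.0849 and 0.156), all with the same direction.

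Among the partners of Axl, Gas6, its ligand, was at 8.83 to 52.7 CPM in control, 64.7 to 194 CPM in senescent, 183 to 652 CPM at 100 μg/mL and 101 to 451 CPM at 300 μg/mL, but it lists a single transcript and missed the threshold in senescence (log2 fold change 2.03, adjusted p = 0.0685) and at both doses. With offsets it rose in senescence (1.93, with an adjusted p of 0.00316) and rose again at the lower dose (1.36, with an adjusted p of 0.0428). Pros1, the other TAM ligand, rose in senescence from 19.7 ± 3.70 to 39.5 ± 4.34 CPM (1.01, adjusted p = 0.00672) and rose again at 100 μg/mL to 89.8 ± 3.10 CPM (1.19, adjusted p = 0.00861), with 69.8 CPM and an adjusted p of 0.0618 at 300 μg/mL. The receptors Tyro3 (34.6 to 39.8 CPM in senescent and 20.2 to 24.5 CPM at 100 μg/mL, adjusted p = 0.067) and Mertk (0.752 to 7.83 CPM over all samples) did not pass the test in these comparisons. Of the 5 genes of the TAM family and its ligands, 1 changed in senescence, 2 at 100 μg/mL and 1 at 300 μg/mL, where 11.7%, 4.02% and 1.9% of all genes changed.

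Ccn2 (connective tissue growth factor) encodes a secreted matricellular protein and was the most abundant of the 10 genes in every group, at a mean of 2432 to 3027 TPM. Its CPM was 4648, 4670.4 and 5149.9 in control mice 4, 5 and 6, and 4747, 5585 and 5186 in senescent MEFs. It was 3185, 3259 and 2582 at 100 μg/mL and 4487, 3794 and 3107 at 300 μg/mL, so every treated sample lay below every senescent one. The fall at 100 μg/mL was −0.78 ± 0.18 on the log2 scale (SE, adjusted p = 0.0355), and with the mouse as a replicate block the adjusted p was 0.0507, which does not pass. At 300 μg/mL it did not pass (−0.45 ± 0.18, adjusted p = 0.257). The call at 100 μg/mL was lost in each of the 6 fits that left out 1 sample (adjusted p = 0.0952 to 0.176), with RLE factors (0.0679), in a fit of 2 groups (0.153) and without the 4 libraries lowest in single-transcript genes (0.132), always with a negative sign, and it held with DESeq2 (−0.69, adjusted p = 0.00933) and with offsets (−0.65, adjusted p = 0.0227).

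Ccn1 (CYR61), its relative and an immediate target of YAP, could not be read in the same way. Its CPM was 449, 254 and 73.6 in control mice 4, 5 and 6, 234, 91.8 and 313 in senescent MEFs, 266, 309 and 118 at 100 μg/mL and 51.0, 206 and 177 at 300 μg/mL. All groups overlapped in CPM, and in each group the lowest value was in the sample lowest in single-transcript genes. Over the 13 libraries the log2 deviation of Ccn1 had a correlation of 0.93 with the median deviation of that class, as a description. Less that median, the deviation was 0.11 to 0.78 in control and −0.06 to 0.27 in senescent libraries. It was −0.37 to −0.21 at 100 μg/mL and −0.68 to −0.17 at 300 μg/mL. Every treated library thus lay below every control and senescent library, a separation that was not tested by itself. Standard errors were wide, with log2 differences of −0.28 ± 0.63 in senescence, 0.12 ± 0.63 at 100 μg/mL and −0.56 ± 0.63 at 300 μg/mL, none past the threshold. With offsets the values were −0.32, −0.16 and −0.49, and none passed (adjusted p = 0.576, 0.847 and 0.517). Tested among the 2067 single-transcript genes alone, the values were −0.33, −0.40 and −0.48, and none passed. A change of Ccn1 of a size like that of Ccn2 was not detectable with this spread.

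**Figure D4:**
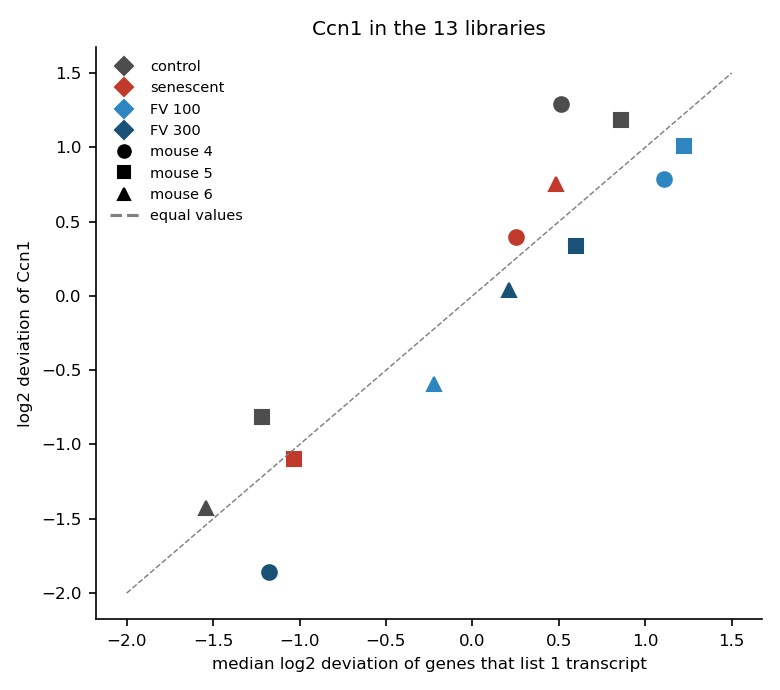
Log2 deviation of Ccn1 from its mean over the libraries (y axis) against the median log2 deviation of genes that list 1 transcript (x axis) in the 13 libraries, coloured by group and shaped by mouse, with a dashed line of equal values. The points run along the line from control mouse 6 (−1.54, −1.43) to FV100 mouse 5 (1.23, 1.01). All control libraries lie above the line, all treated libraries below it and senescent libraries on both sides. The libraries of control mouse 5 lie far apart at −1.22 and 0.86 on the x axis.

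Of the 5 tested genes of the CCN family, Ccn3 rose at both doses, Ccn5 rose in senescence and Ccn2 fell at 100 μg/mL, so that 1 changed in senescence, 2 at the lower and 1 at the higher dose, against 11.7%, 4.02% and 1.9% of all genes. Ccn3 held 0.376 to 3.14 CPM in control and 3.02 to 8.40 CPM in senescent MEFs, and rose to 81.8 to 88.2 CPM at 100 μg/mL (log2 fold change 3.68 ± 0.70, adjusted p = 0.013) and to 57.7 ± 44.3 CPM (SD, n = 3) at 300 μg/mL (3.14 ± 0.68, adjusted p = 0.0335). It lists a single transcript, and with offsets it also passed at both doses (3.23 and 2.95). Ccn5 held 4.42 to 35.4 CPM in control and rose in senescence to 69.4 to 137 CPM (2.16 ± 0.55, adjusted p = 0.0227). Ccn4 stood at 139.9 to 260.3 CPM on average in the groups and did not pass the test.

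Levels compared per length put Ccn2 first in all 4 groups without overlap with the next gene. In control MEFs Axl (455 TPM), Ankrd1 (348), Amotl2 (282), Ccn1 (189.9) and Yap1 (154) followed, each overlapping the next over the 3 mice, and then Tead1 (81.2), Ajuba (70.6), Wwtr1 (48.1) and Lats2 (36.9). At 100 μg/mL the order after Ccn2 was Amotl2 (434 TPM), Ccn1 (237), Axl (207), Yap1 (162), Ankrd1 (135), Wwtr1 (92.3), Tead1 (83.6), Lats2 (69.8) and Ajuba (52.3). Ankrd1 and Axl thus stood below Amotl2 in every treated sample, whereas in senescent MEFs Ankrd1 stood above Amotl2 in every sample and Axl overlapped it. The deposited TPM values of all genes had a median log2 shift of 0.40 at 100 μg/mL and 0.30 at 300 μg/mL against senescent MEFs. Relative to this shift, Ankrd1 differed by −2.19 and −1.98, Axl by −0.94 and −0.85 and Ccn2 by −0.74 and −0.46. On unshifted TPM the treated samples still lay below the senescent ones for Ankrd1, but the groups overlapped for Axl, Ccn2 and Ajuba. Amotl2 separated upward, at 391 to 464 and 383 to 460 TPM at the doses against 177 to 312 TPM in senescent MEFs.

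Upstream genes of the wider pathway are counted here against the 11.7% of all genes that changed in senescence and the 4.02% and 1.9% that changed at the doses. Among 21 genes of the Hippo kinase cascade and its scaffolds 1 rose in senescence, Taok3 (a kinase upstream of the cascade, 38.8 ± 2.55 to 70.1 ± 19.8 CPM, log2 fold change 0.85, adjusted p = 0.0206), and none changed at either dose. Among 19 inhibitors of YAP and TAZ and antagonists of LATS, Mark4 rose in senescence (66.0 ± 5.85 to 113 ± 13.8 CPM, 0.77, adjusted p = 0.00637) and Ajuba fell. Fat4, an atypical cadherin, was at 8.19 to 35.9 CPM in senescent MEFs and rose at 100 μg/mL to 87.1 to 141 CPM (2.48 ± 0.53, adjusted p = 0.0223), with 55.2 to 107 CPM and an adjusted p of 0.0904 at 300 μg/mL. The median log2 fold change of the kinase list was −0.06, −0.01 and 0.20 in senescence and at the 2 doses, beside 0.07, −0.02 and 0.00 over all genes, and the list median at 300 μg/mL was −0.05 with offsets. Of the 7 tested genes of the coactivators, TEADs and cofactors, 1 fell in senescence (Tead2) and none changed at the doses. With lists of this size, these counts are near the shares of all genes.

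A signature of 22 target genes of YAP and TAZ, which holds 6 of the 10 genes above, moved both ways. In senescence 3 of the 22 rose and none fell, a share near the 11.7% of all genes that changed: Igfbp3 (an insulin-like growth factor binding protein, 1.44 ± 0.423 to 20.2 ± 1.62 CPM, adjusted p = 8.18e-05), Ccdc80 (log2 fold change 1.37, adjusted p = 0.000391) and F3, the tissue factor gene (0.96, adjusted p = 0.0101). At 100 μg/mL, where 4.02% of all genes changed, 4 fell and none rose, namely Ankrd1, Axl, Ccn2 and Nuak2 (a kinase of the AMPK family, 52.9 ± 8.45 to 25.2 ± 4.93 CPM, −1.07, adjusted p = 0.0446). At 300 μg/mL, where 1.9% of all genes changed, Ankrd1 and Axl fell and Ccdc80 rose (0.82, adjusted p = 0.0352). The median of the signature was 0.10, 0.08 and −0.08 in these comparisons, beside 0.07, −0.02 and 0.00 over all genes. With offsets the medians at the doses were −0.13 and −0.25, with 3 genes up and 6 down at 100 μg/mL and 3 up and 4 down at 300 μg/mL. At 100 μg/mL 12 of its genes were higher and 10 lower than in senescent MEFs.

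**Figure D5:**
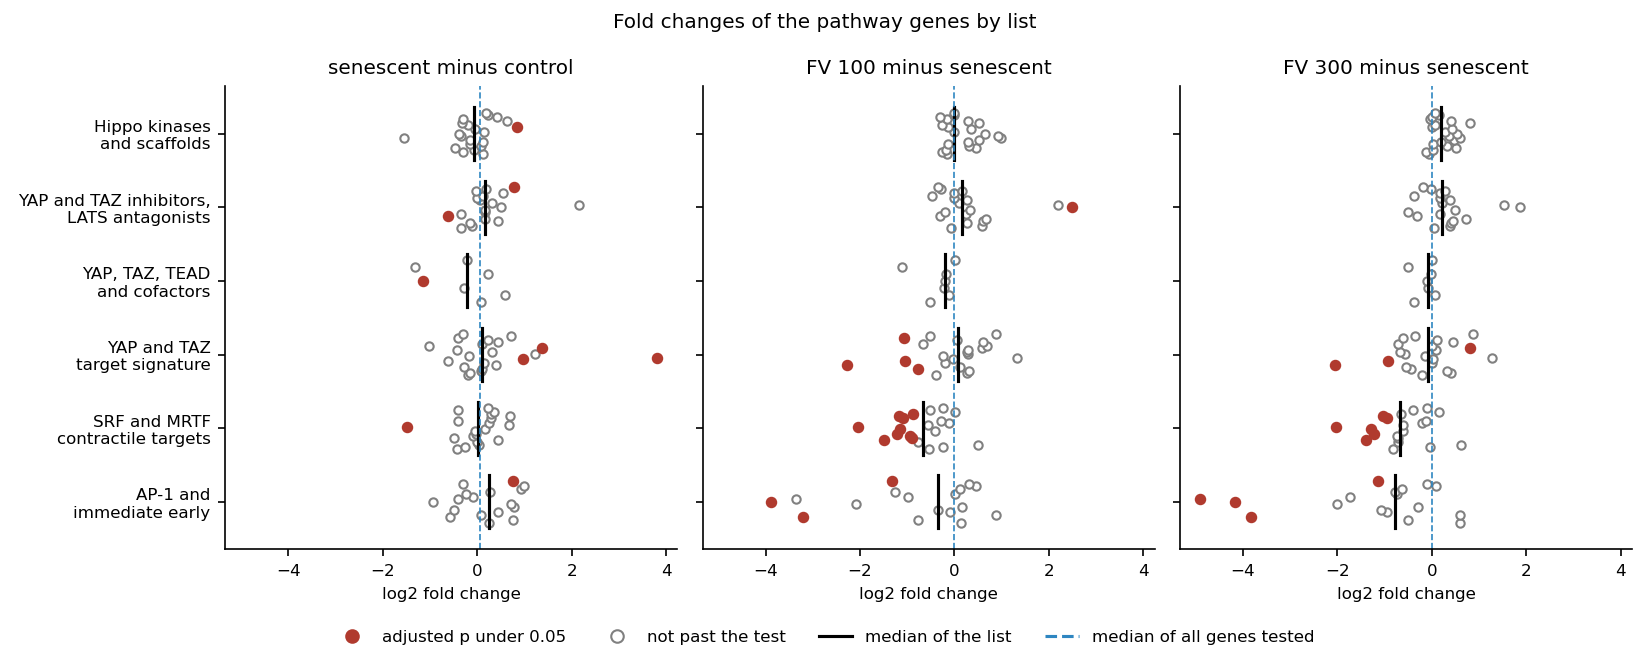
Log2 fold change (x axis) of each tested gene of 6 lists (y axis) in the 3 comparisons, filled where the adjusted p was under 0.05, with the median of the list as a black bar and that of all genes as a dashed line. The contractile list lies to the left of the dashed line at both doses (medians −0.66 and −0.68), whereas the medians of the kinase list (−0.01 and 0.20) and of the target signature (0.08 and −0.08) lie near it.

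Targets of serum response factor (SRF) and its coactivators MRTF, which also respond to actin tension, are the next list. Of the 20 genes of this list 9 fell at 100 μg/mL and 6 at 300 μg/mL, against 2.89% and 1.12% of all genes, and none rose. The list also counts the regulator genes Srf, Mrtfa and Mrtfb themselves, which did not pass the test at either dose. Those with the largest falls at 100 μg/mL were Tagln2 (251 ± 117 to 61.1 ± 8.63 CPM, log2 fold change −2.04, adjusted p = 0.00294), Actg2 (smooth muscle gamma actin, 2189.9 ± 955 to 773 ± 112 CPM, 0.0159), Cnn1 (calponin, −1.21, 0.0196) and Tpm2 (a tropomyosin, −1.17, 0.0123). At 300 μg/mL the largest were those of Tagln2 (−2.03, adjusted p = 0.00379), Actg2 (−1.40, 0.0297), Tagln (−1.28, 0.0328) and Cnn1 (−1.22, 0.0269). In senescence 1 of the 20 changed, Tagln2, which fell by 1.48. Of 17 genes of AP-1 and the immediate early response 3 fell at 100 μg/mL and 4 at 300 μg/mL, beside the same shares, and in senescence Dusp1, a phosphatase of MAP kinases, rose (0.76, adjusted p = 0.0181). Fosl1 held 13.9 to 22.4 CPM in senescent MEFs and fell to 0.450 to 2.88 CPM at 100 μg/mL (−3.20, adjusted p = 0.00859) and 0.892 to 1.53 CPM at 300 μg/mL (−3.84, adjusted p = 0.00635). Egr2 fell (−3.88 and −4.18) and Dusp1 fell (−1.32 and −1.14). Egr3 fell at 300 μg/mL (−4.90 ± 1.14, SE, adjusted p = 0.0450), from 4.04 to 5.99 CPM in senescent MEFs to 0 to 0.498 CPM. With values at or near 0, the size of this fall is uncertain.

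Over the 12 samples the genes most like Ankrd1 in log2 CPM were Nes, the intermediate filament gene nestin (Pearson r = 0.98), Tpm1, a tropomyosin (0.98), and Noct (0.98). Those most like Axl were Nap1l1 (0.98), Soat1 (0.98) and Fyn (0.98), and those most like Ajuba Gemin2 (0.98), Rnps1 (0.98) and Exosc8 (0.97). Ccn2 was most like Tyro3 (0.95), Zfp593 (0.94) and Baalc (0.94). Nes held 823 CPM on average in senescent MEFs and 145 and 154 CPM at the doses, a pattern of levels close to that of Ankrd1. Among the 10 genes the highest correlations were those of Ankrd1 with Ccn2 (0.88), Axl with Ajuba (0.87) and Axl with Ankrd1 (0.81), and the lowest that of Wwtr1 with Ccn1 (−0.71). The samples behind each value share their groups, so these correlations describe the patterns and carry no test.

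Against control MEFs, 4 of the 10 genes fell at 100 μg/mL (Axl, Ankrd1, Ajuba and Ccn2) and 3 at 300 μg/mL (Axl, Ankrd1 and Ajuba), where 26.6% and 24.4% of all genes changed and 14.4% and 12% fell. Ccn2 fell by 0.68 at 100 μg/mL (adjusted p = 0.015), a call that was lost without any 1 of the control mice 4, 5 and 6 (0.0819, 0.0988 and 0.134), with library 5(2) alone as control mouse 5 (0.0582) and without the 4 libraries lowest in single-transcript genes (0.234). The values of treated and control samples did not overlap in 5 of the 10 genes with the lower dose and in 8 with the higher dose, where the shares of all genes were 48.3% and 43.3%.

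With offsets, 3 of the 10 genes changed in senescence (Wwtr1, Ajuba and Axl), against 21.4% of all genes, and between the doses 0 changed, against 0.00666%. Against senescent MEFs 5 changed at 100 μg/mL (Yap1, Tead1, Ccn2, Ankrd1 and Axl) and 3 at 300 μg/mL (Yap1, Ankrd1 and Axl), where 8.09% and 5.65% of all genes changed. Against control MEFs the numbers were 6 at 100 μg/mL, Ajuba being added to the former 5, and 7 at 300 μg/mL, Wwtr1 being added as well, with 36.8% and 35.1% of all genes. When a log2 fold change over 1 was also required, 0 of the 10 genes passed in senescence (8.42% of all genes). Ankrd1 and Axl then passed at 100 μg/mL against senescent MEFs (2.69%) and Ankrd1 passed at 300 μg/mL (1.64%), and both genes passed at each dose against control MEFs (19.7% and 18%).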

How the data were processed

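RNA-Seq was done with a stranded TruSeq kit on 13 libraries of 12 samples. According to the methods and the labels, the authors checked reads with FastQC 0.12.1, trimmed them with Trimmomatic, aligned them to GRCm39 with STAR 2.7.11b and quantified genes with RSEM 1.3.1. Which strand option was used for counting is not given in the sources used here, so genes that overlap on opposite strands may share reads. The authors deposited an expected count per gene and library, not normalized. The deposited TPM values, from the same RSEM output, are scaled for transcript length and library size. The deposited FPKM values, scaled by the authors for length and library depth, were not used.

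Expected counts were summed for libraries 5(1) and 5(2), rounded to whole numbers and tested with edgeR 4.0.16 (R 4.3.3): TMM factors, filterByExpr (minimum count 10, minimum total 15), 1 quasi-likelihood fit over the 4 groups, 2-sided tests of 6 comparisons and Benjamini-Hochberg adjustment over 15034 genes. Of the 57010 genes listed, 56310 matched the GRCm39 annotation and 27297 had a count above 0. Correlations used log2 CPM. The ratios of TPM were compared by an exact permutation test (scipy 1.17.1), in which 3 samples against 3 cannot go below p = 0.1. The fit was tested on simulated data. Alternatives were DESeq2 1.42.0, RLE factors, other filters, fits of 2 groups alone, samples left out, the libraries of control mouse 5 treated otherwise, mouse as a block, and offsets. The fits among single-transcript genes alone and without the 4 libraries lowest in them, and the TPM values relative to the median of all genes, were added after the data were seen.

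Mouse numbers 4, 5 and 6 recur in each group and by the labels name the same animal. Samples of the same number did not deviate together throughout, with a median correlation of −0.037 over 18 pairs (−0.33 to 0.60), 8 of them over 0.1. The 10 genes and the pathway lists were chosen with earlier results of these data known. Of each list, at most the 4 genes with the largest rises and the 4 with the largest falls past the threshold were named, together with every tested gene of the CCN, TAM and muscle ankyrin repeat families and the 3 genes most like each of Ccn2, Ankrd1, Ajuba and Axl. Tead3, Tead4, the cell type markers and the levels of named genes in comparisons where they did not pass were added after their values were seen.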

Additional observations from a re-analysis of the deposited data

How the results depend on the processing

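Over the alternatives, 984 of 1056 values of the 10 genes kept their side of the threshold, 34 lost the call, 38 gained it and 0 reversed. Among the 984 are 54 values that changed sign where neither fit passed. In senescence, where 1 gene changed, the number was 2 with DESeq2, RLE factors, at least 10 counts in every sample or library 5(1) alone, 3 with offsets, with or without the replicate block, and 0 in a fit of 2 groups, without the 4 libraries lowest in single-transcript genes or at a log2 fold change over 1, with 0 to 3 when 1 sample was left out. At 100 μg/mL against senescent MEFs, 3 became 1 in a fit of 2 groups or without the 4 libraries, 5 with offsets, with or without the block, and 1 to 2 when 1 sample was left out. At 300 μg/mL, 2 became 1 in a fit of 2 groups, without the 4 libraries or at a log2 fold change over 1, and 1 to 2 when 1 sample was left out. Against control MEFs, 4 became 2 at 100 μg/mL at a log2 fold change over 1, and 3 became 5 at 300 μg/mL with no filter and 7 with offsets, with or without the block. The cause was not tested. With mouse as the replicate block the numbers were 1, 2, 2, 0, 4 and 3 in the 6 comparisons, and Ccn2 at 100 μg/mL against senescent MEFs (adjusted p = 0.0507 by edgeR) was the only call that changed. On TPM relative to the median of all genes, 50 of 50 differences moved by less than 1 standard error of the main fit. Some that had not passed the test changed sign, among them Tead1 against senescent MEFs at 100 μg/mL (−0.22 to 0.05) and 300 μg/mL (−0.09 to 0.10).

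The 3 mice per group, and single-transcript genes that vary between libraries of 1 mouse, limit these comparisons, and Ccn1 most of all.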
